A study of Mus musculus with 24 samples.

Results

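The genes described here encode proteins that read methylated DNA, or carry the domain of the proteins that do, and they were measured in the hippocampus of mice whose fathers or paternal grandfathers had eaten a methyl donor-rich diet. They are Mbd1, Mbd2, Mbd3, Mbd5 and Mbd6 of the methyl-CpG binding domain (MBD) family and Zbtb33, Zbtb4 and Zbtb38 of the zinc finger family. All probes that carry these symbols on the array were taken, which gave 13 probes of 8 genes among 39429 probes in all. Offspring of each diet were studied in 2 generations (CD F1 and MD F1, CD F2 and MD F2), and each of these 4 groups had 6 single-colour Agilent arrays. Each array held RNA pooled from 4 mice, per the study's description, and the labels give an age of 4 weeks where the study speaks of adult mice.

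Fathers of the MD groups were C57BL/6J males fed the methyl donor diet (MD) for 6 weeks before mating, and fathers of the CD groups received the control diet (CD). To each kg of MD chow were added zinc (150 mg), folic acid (15 mg) and vitamin B12 (1.5 mg), together with betaine and choline at 15 g each and methionine at 7.5 g. The males were mated with 129S6/SvEv females, so that the F1 mice were hybrids of both strains. F2 mice came from F1 sons of either kind of father and F1 females of CD fathers, and were of mixed background. The offspring of every group ate control chow themselves. The diet was therefore that of the father (F1) or of the paternal grandfather (F2), and the model is limited to pools of mice and to hippocampal tissue. Because the RNA is from bulk tissue, fewer cells of a type and less RNA per cell cannot be told apart.

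In DNA of the brain, cytosine followed by guanine (CpG) is widely methylated, and methyl-CpG binding proteins tie that mark to the packing of chromatin. Mbd1 and Mbd2 bind methylated CpG through the MBD, whereas mammalian Mbd3 has largely lost this preference. Mbd2 and Mbd3 are alternative subunits of the nucleosome remodelling and deacetylase complex (NuRD). Mbd5 and Mbd6 carry an MBD but work with the histone H2A deubiquitinase complex PR-DUB. Zbtb33 (Kaiso), Zbtb4 and Zbtb38 (CIBZ) reach methylated CpG through zinc fingers and recruit corepressors through other parts of the protein.

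The promoters of Zbtb38 and Zbtb33 are shown because the lowest F1 differences between the diets, described below, were those of these genes. The 250 bases before each start are from RefSeq, build GRCm38.p6, and are printed in the direction of the gene with each CG in capitals. Methylation was not measured on these arrays.
Zbtb38, upstream start (chr9:96731676-96731925, minus strand): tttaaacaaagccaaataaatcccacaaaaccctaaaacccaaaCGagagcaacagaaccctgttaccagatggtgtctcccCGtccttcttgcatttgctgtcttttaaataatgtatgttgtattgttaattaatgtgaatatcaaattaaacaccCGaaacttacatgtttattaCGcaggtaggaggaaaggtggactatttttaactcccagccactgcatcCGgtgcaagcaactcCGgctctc
Zbtb38, inner start (chr9:96719851-96720100, minus strand): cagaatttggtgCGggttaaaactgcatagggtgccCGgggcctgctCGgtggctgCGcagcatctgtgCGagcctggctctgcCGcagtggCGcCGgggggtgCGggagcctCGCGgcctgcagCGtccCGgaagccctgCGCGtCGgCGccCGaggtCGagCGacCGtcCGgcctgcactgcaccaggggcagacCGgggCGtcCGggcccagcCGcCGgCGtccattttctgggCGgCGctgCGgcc
Zbtb38, innermost start (chr9:96719446-96719695, minus strand): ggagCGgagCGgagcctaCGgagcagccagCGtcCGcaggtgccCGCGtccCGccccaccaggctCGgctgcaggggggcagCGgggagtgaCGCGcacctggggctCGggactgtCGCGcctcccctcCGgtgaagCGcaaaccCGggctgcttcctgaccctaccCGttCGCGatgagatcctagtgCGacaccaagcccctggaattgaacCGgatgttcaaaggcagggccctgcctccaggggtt
Zbtb33 (chrX:38189543-38189792, plus strand): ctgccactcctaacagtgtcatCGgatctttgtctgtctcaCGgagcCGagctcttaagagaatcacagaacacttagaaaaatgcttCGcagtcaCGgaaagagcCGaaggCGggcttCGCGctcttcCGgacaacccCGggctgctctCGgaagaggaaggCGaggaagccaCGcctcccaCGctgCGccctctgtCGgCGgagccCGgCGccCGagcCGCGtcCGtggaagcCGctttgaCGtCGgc
The inner Zbtb38 window held 31 CG, the innermost 23 and the Zbtb33 window 27, whereas the window before the upstream Zbtb38 start held 6, which is the median over 32851 windows of the same length. A total of 95.4% of all windows held no more CG than the inner Zbtb38 window, 88.0% no more than the innermost and 92.4% no more than that of Zbtb33. The sequence CGCG, which contains methylatable sites next to each other, occurred 2 times in the inner Zbtb38 window, 4 times in the innermost and 2 times in that of Zbtb33, and was absent from the window of the upstream start. It occurred in 33.8% of all windows. The unmethylated Kaiso site TCCTGCNA, searched on both strands, was in none of these 4 windows and in 4.03% of all windows. Windows of Mbd3, Mbd5, Mbd6 and Zbtb4, not printed here, held from 4 CG (Mbd5) to 32 CG (Mbd6, 96.0% of all windows with no more). A high CG count was thus not particular to Zbtb38 and Zbtb33. These counts describe letters in a window and are no evidence of binding.

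At an FDR under 0.1 (limma, Benjamini-Hochberg over all probes), 0 of the 13 probes passed in MD F1 against CD F1, where 11 of 39429 probes did (0.0279%). At an unadjusted p under 0.05, 2 of the 13 probes passed in F1, both lower in MD F1, against 14.5% of all probes in either direction and 7.28% lower. The median log2 fold change was -0.07 over the 13 probes and 0.01 over all probes. Of the 13, 9 were below 0, against 18766 of 39429 probes in all. These 9 include Mbd5 (-0.01) and Mbd3 A_66_P127024, which rounds to 0.00. In F2, 0 of 13 passed at an FDR under 0.1, as did 0 of 39423 probes, and 0 of 13 passed at an unadjusted p under 0.05, against 5.56% of all probes. All F2 differences lay between -0.20 and 0.12. For the difference between the diet effects of the generations, 0 of 13 passed at an FDR under 0.1 (0.0127% of all probes) and 1 of 13 at an unadjusted p under 0.05 (8.21% of all probes, and 4.42% on the same side). The F1 count rested on which arrays were used: without MD F1 replicate 6 it was 5 of 13, against 14.4% of all probes, namely Zbtb38, Mbd3 A_55_P1960873 and Mbd1 A_55_P1971124 on the lower side and Mbd2 A_66_P133043 and Zbtb4 A_55_P2165644 on the higher, and 0 of 13 passed at an FDR under 0.1.

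**Figure D1:**
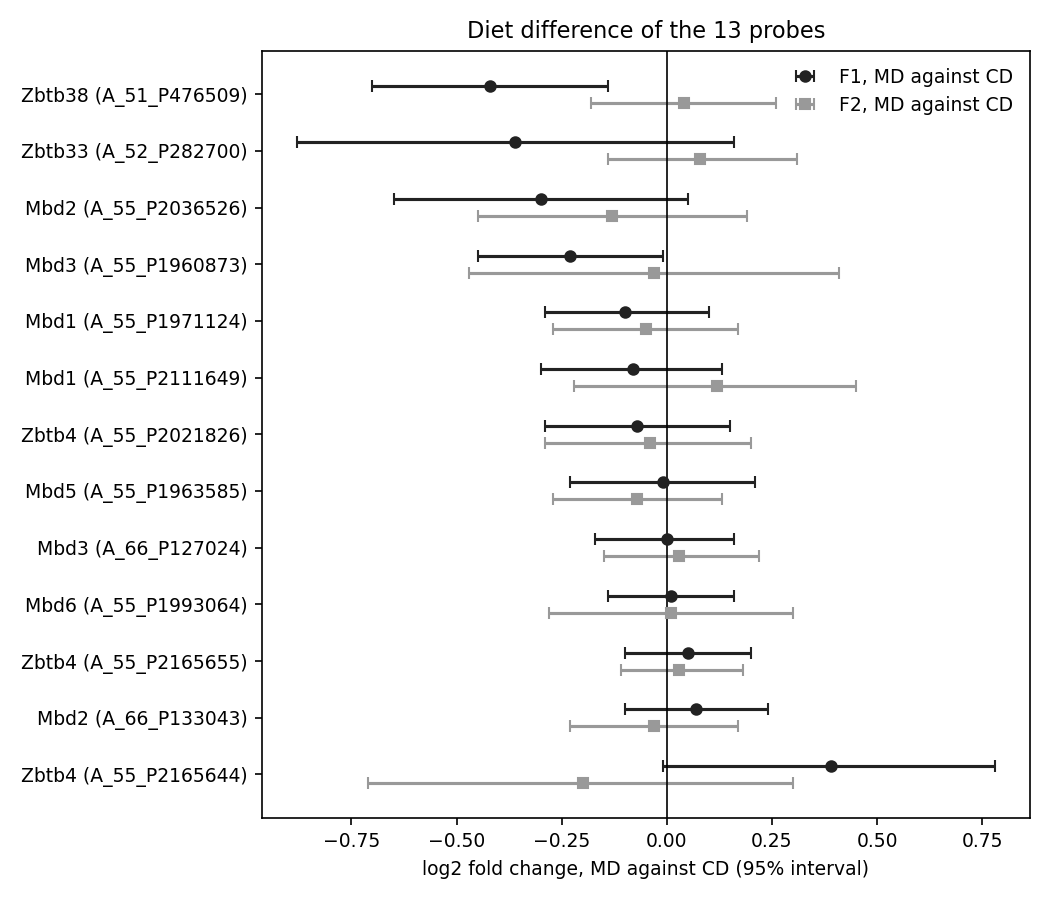
Log2 fold change of MD against CD for each of the 13 probes in F1 (black circles) and F2 (grey squares), with 95% intervals from the limma fit of 6 arrays per group. The F1 intervals of Zbtb38 and of Mbd3 A_55_P1960873 lie below 0; every F2 interval includes 0.

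Zbtb38 was the member with the lowest value in MD F1 relative to CD F1. This protein binds methylated DNA through its zinc fingers and interacts with the corepressor CtBP. On the log2 scale, after normalization within F1, its single probe spanned 9.92 to 10.35 with a median of 10.02 on the CD F1 arrays, and 9.11 to 9.88 with a median of 9.76 on the MD F1 arrays. The highest MD F1 value was thus under the lowest CD F1 value. The 6 arrays of each diet did not overlap for 1 of 13 member probes in F1, against 1.83% of all probes. The mean went from 10.09 ± 0.169 (SD, n = 6) among controls to 9.67 ± 0.28 (SD, n = 6) with the paternal MD. Its F1 log2 fold change was -0.42 with a standard error of 0.129 and a 95% interval of -0.70 to -0.14 (limma, FDR = 0.224), so that the 1.34-fold lower level did not pass the FDR threshold.

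MD F1 replicate 6 held the lowest Zbtb38 value, 9.11, and the other MD F1 arrays lay between 9.74 and 9.88. Without replicate 6 the log2 fold change was -0.31 (limma, FDR = 0.157). Within the 3 slides, which each carried 2 arrays per diet, the F1 differences were -0.70, -0.40 and -0.16, and with slide as a block the value was -0.42 (limma, FDR = 0.262). In F2 Zbtb38 spanned 8.73 to 9.16 with a median of 9.07 on the CD F2 arrays, and 8.85 to 9.31 with a median of 9.09 on the MD F2 arrays, so the diets overlapped. The F2 log2 fold change was 0.04, with a 95% interval of -0.18 to 0.26 (limma, FDR = 0.989). The diet effect in F1 minus that in F2 was -0.46 with a 95% interval of -0.80 to -0.11 (limma, FDR = 0.47), so a difference between the generations was not established at the FDR threshold.

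**Figure D2:**
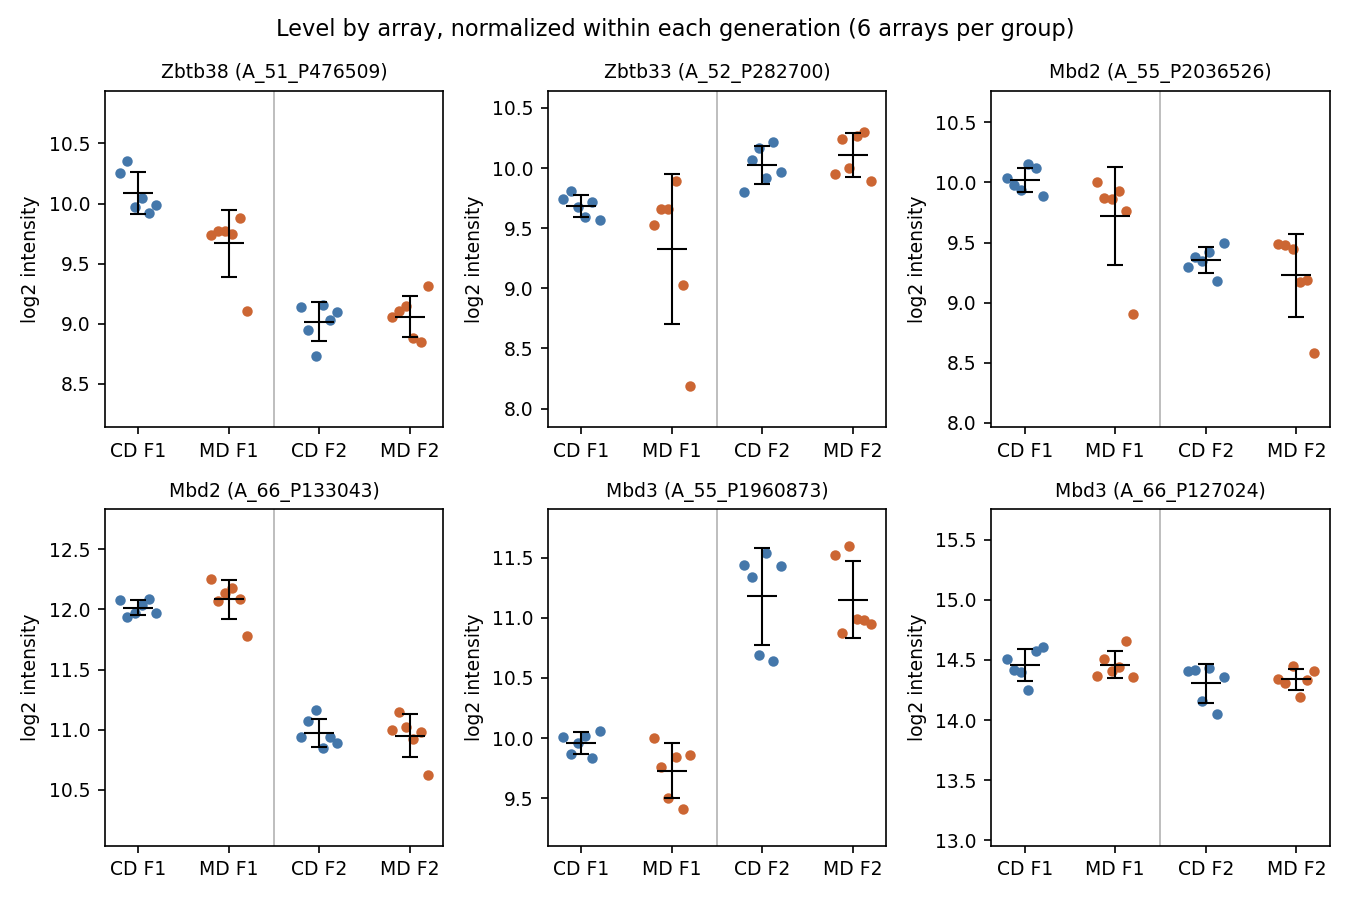
Log2 intensity on each array for 6 of the 13 probes, normalized within each generation; points are arrays in replicate order (blue CD, orange MD), and bars are the mean ± SD of 6 arrays. Zbtb38 is lower on all MD F1 arrays, while in Zbtb33 and Mbd2 (A_55_P2036526) the low MD F1 mean follows 1 or 2 arrays.

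Other measures of the arrays differed between the F1 diet groups as well. Median intensity before scaling was 251.4 to 317.8 in CD F1 and 166.6 to 262.4 in MD F1, lowest in MD F1 replicate 6. The summed level of 6 astrocyte markers, all well above background, was 44500 to 48400 in CD F1 and 35300 to 43900 in MD F1, without overlap. The sum of 5 neuronal markers was 228000 to 281000 in CD F1 and 181000 to 250000 in MD F1, and that of 7 hippocampus markers was 45000 to 49000 and 41500 to 46100. All of these markers were well above background on every F1 array. MD F1 replicate 6 had the lowest neuronal and hippocampal sums of the F1 arrays. Among the marker lists, only the astrocyte sums did not overlap between the F1 diets. Thalamus sums were 3540 to 4110 in CD F1 (median 3760) and 3060 to 3610 in MD F1 (median 3260). The sums were 10100 to 12300 and 10200 to 13900 for striatum, and 341000 to 434000 and 355000 to 430000 for oligodendrocytes. For microglia they were 20900 to 23100 and 20100 to 23800, and for endothelium 12900 to 16600 and 13100 to 18400. Choroid plexus markers varied most between arrays, from 3280 to 76900 in CD F1, 3490 to 177000 in MD F1, 2760 to 350000 in CD F2 and 3320 to 266000 in MD F2. The part of these measures in the Zbtb38 difference was not tested.

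A measure of sex composition also differed between arrays. It is the mean log2 level of Ddx3y, Eif2s3y, Kdm5d and Uty, genes of the Y chromosome, minus that of Xist, which silences an X chromosome in females. All 12 F1 arrays carried both Xist and Ddx3y well above background, and the measure was -2.30 to -1.89 in CD F1 and -2.15 to 0.15 in MD F1, highest in MD F1 replicate 6. With this measure as a covariate, the F1 difference of Zbtb38 was -0.21 (limma, FDR = 0.547). In F2, 9 arrays carried Ddx3y but not Xist above background and 3 arrays (CD F2 replicates 3 and 5 and MD F2 replicate 6) carried Xist but not Ddx3y.

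Zbtb33, whose gene lies on the X chromosome, encodes Kaiso, which binds the NCoR corepressor and p120 catenin. Its probe spanned 9.57 to 9.81 with a median of 9.70 on the CD F1 arrays, and 8.19 to 9.89 with a median of 9.59 on the MD F1 arrays. Replicates 6 and 5 of MD F1, at 8.19 and 9.03, lay below all other F1 arrays, and the other MD F1 arrays, at 9.53 to 9.89, overlapped with the controls. The log2 fold change was -0.36 with a 95% interval of -0.88 to 0.16 (limma, FDR = 0.496). It was -0.13 without replicate 6 and -0.08 with the sex measure as a covariate (limma, FDR = 0.662 and 0.942). In F2 the CD arrays lay at 9.80 to 10.22 (median 10.02) and the MD arrays at 9.89 to 10.30 (median 10.12). Their log2 fold change was 0.08 (limma, FDR = 0.955). The 3 F2 arrays with Xist held Zbtb33 values of 10.17, 10.22 and 9.89, within the range of the other 9.

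Zbtb4, a relative of Kaiso that also binds methylated CpG, had 3 probes. Of these, A_55_P2165655 differed by 0.05 in F1 and 0.03 in F2, with 95% intervals of -0.10 to 0.20 and -0.11 to 0.18, and A_55_P2021826 by -0.07 and -0.04. The dim probe A_55_P2165644 was well above background on all F1 arrays and on 5 of 6 arrays of each F2 group. It spanned 5.0 to 5.30 with a median of 5.13 on the CD F1 arrays, and 5.23 to 6.43 with a median of 5.34 on the MD F1 arrays, and 6.43 was again replicate 6. Its log2 fold change was 0.39 in F1 (95% interval -0.01 to 0.78; limma, FDR = 0.35) and -0.20 in F2 (95% interval -0.71 to 0.30). Without replicate 6 it was 0.21 in F1 (limma, FDR = 0.29). The F1 values of the Zbtb4 probes lay on both sides of 0.

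Mbd2, the methyl-CpG binding subunit of NuRD, had a pair of probes whose F1 values lay on either side of 0. Probe A_55_P2036526 spanned 9.89 to 10.15 with a median of 10.01 on the CD F1 arrays, and 8.91 to 10.00 with a median of 9.86 on the MD F1 arrays, with a log2 fold change of -0.30 (95% interval -0.65 to 0.05; limma, FDR = 0.406). Replicate 6 held the value of 8.91, and the other MD F1 arrays lay at 9.76 or above. Probe A_66_P133043 spanned 11.94 to 12.09 with a median of 12.01 on the CD F1 arrays, and 11.78 to 12.25 with a median of 12.12 on the MD F1 arrays, with a log2 fold change of 0.07 (95% interval -0.10 to 0.24). Without replicate 6 the values were -0.14 and 0.13 (limma, FDR = 0.368 and 0.301). In F2 the log2 fold changes were -0.13 and -0.03, with 95% intervals of -0.45 to 0.19 and -0.23 to 0.17. MD F2 replicate 6, an array with Xist, was lowest of the F2 arrays on both probes, at 8.58 and 10.62.

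Mbd3, the alternative NuRD subunit, had a brighter probe, A_66_P127024, that stayed at 14.25 to 14.61 (median 14.46) in CD F1 and 14.36 to 14.66 (median 14.42) in MD F1. Its log2 fold change was 0.00, with a 95% interval of -0.17 to 0.16. The dimmer probe A_55_P1960873 spanned 9.83 to 10.06 with a median of 9.98 on the CD F1 arrays, and 9.41 to 10.00 with a median of 9.80 on the MD F1 arrays. Its log2 fold change was -0.23 with a 95% interval of -0.45 to -0.01 (limma, FDR = 0.33), and MD F1 replicates 5 and 3, at 9.41 and 9.50, were the lowest arrays. In F2 the differences were 0.03 and -0.03, with 95% intervals of -0.15 to 0.22 and -0.47 to 0.41. The lower F1 value was thus seen on 1 of the 2 Mbd3 probes.

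On the dimmer Mbd3 probe the 12 F2 arrays fell into separate ranges, with arrays of both diets in each. After normalization of all 24 arrays together, CD F2 replicates 1, 2, 4 and 6 and MD F2 replicates 1 and 3 lay between 11.56 and 11.82, and the other 6 arrays, which include the 3 with Xist, between 10.81 and 11.18. The same 6 arrays held the 6 highest F2 values of the dim Zbtb4 probe, although on 2 of them (CD F2 replicate 6 and MD F2 replicate 3) that probe was not well above background, so that their place in its order is not reliable. They also had the 6 highest sums of the hippocampus markers, 74400 to 82000 against 61000 to 67300 in the others. On the brighter Mbd3 probe the 12 F2 arrays spanned 14.38 to 14.80, and 5 of its 6 highest arrays were shared, as were 5 of 6 for Mbd1 A_55_P2111649 and for Mbd2 A_55_P2036526. For the other 8 probes, 1 to 4 were shared. In F1, the 6 highest arrays by hippocampus sum held 4 of the 6 highest for the dimmer Mbd3 probe. The count was also 4 for the brighter Mbd3 probe, Mbd2 A_55_P2036526, Mbd5 and Zbtb33, and it was 5 for Zbtb38. For the remaining probes these F1 arrays held 1 to 3. For the dim Zbtb4 probe they held 1 of 6. The F2 split was read from the values of the Mbd3 probe itself, and the shared counts were not set against those of all probes. All 7 hippocampus markers, which include Prox1 of the dentate gyrus and Wfs1 of CA1, were well above background on every array. The part of tissue composition in these levels was not tested.

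**Figure D3:**
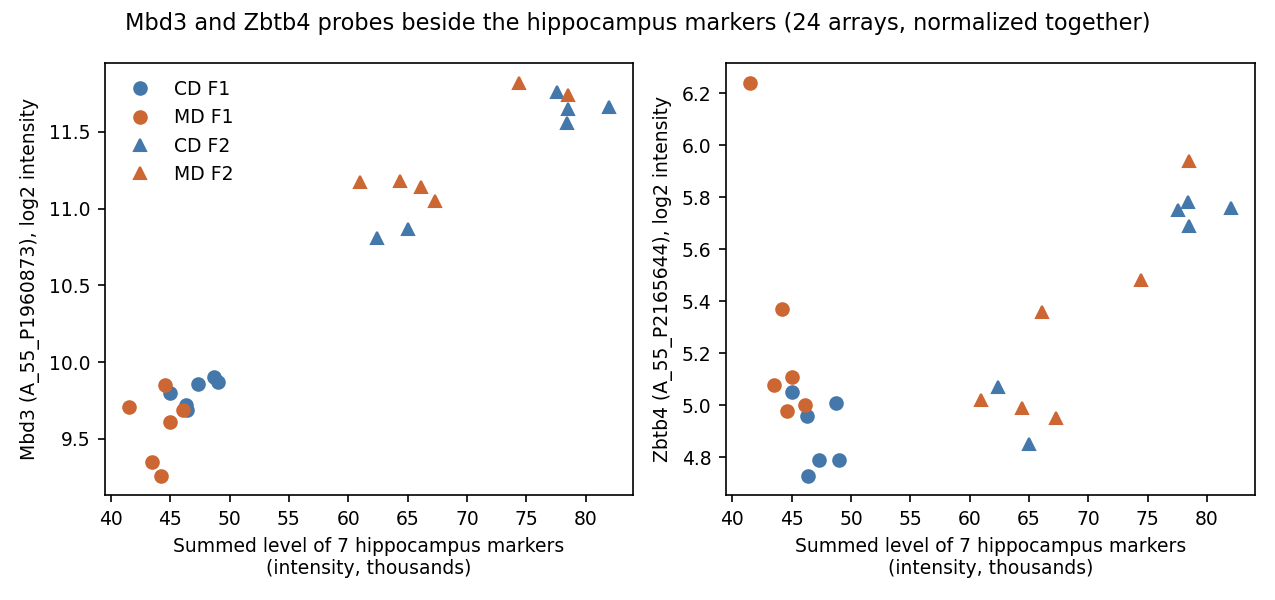
Log2 intensity of Mbd3 A_55_P1960873 (left) and Zbtb4 A_55_P2165644 (right) against the summed intensity of 7 hippocampus markers on the 24 arrays, normalized together (circles F1, triangles F2; blue CD, orange MD). Among the F2 arrays, the 6 with sums of 74400 to 82000 have the highest values on both probes, with the Zbtb4 probe not well above background on 2 of them.

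Mbd1, which binds methylated CpG and works with the histone methyltransferases Setdb1 and Suv39h1, had log2 fold changes of -0.10 and -0.08 in F1 and of -0.05 and 0.12 in F2 on its probes A_55_P1971124 and A_55_P2111649. The F1 intervals were -0.29 to 0.10 and -0.30 to 0.13, and those in F2 -0.27 to 0.17 and -0.22 to 0.45. Probe A_55_P1971124 ranged from 11.22 to 11.45 in CD F1 and from 11.03 to 11.56 in MD F1, where the highest value was replicate 6. Without that array its F1 value was -0.17 (limma, FDR = 0.281).

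Mbd5, which together with Mbd6 binds PR-DUB and is known from neurodevelopmental disorders, spanned 12.24 to 12.46 with a median of 12.32 on the CD F1 arrays, and 12.08 to 12.77 with a median of 12.30 on the MD F1 arrays. The value of 12.77 was that of MD F1 replicate 6. The log2 fold changes of Mbd5 were -0.01 in F1 and -0.07 in F2, with 95% intervals of -0.23 to 0.21 and -0.27 to 0.13. Without MD F1 replicate 6 its F1 value was -0.10 (limma, FDR = 0.517). Mbd6 ranged from 12.81 to 13.03 in CD F1 and from 12.79 to 13.13 in MD F1. It differed by 0.01 in each generation, with 95% intervals of -0.14 to 0.16 in F1 and -0.28 to 0.30 in F2. The F1 intervals of Mbd6, Mbd3 A_66_P127024 and Zbtb4 A_55_P2165655 all lay within 0.20 of 0.

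**Figure D4:**
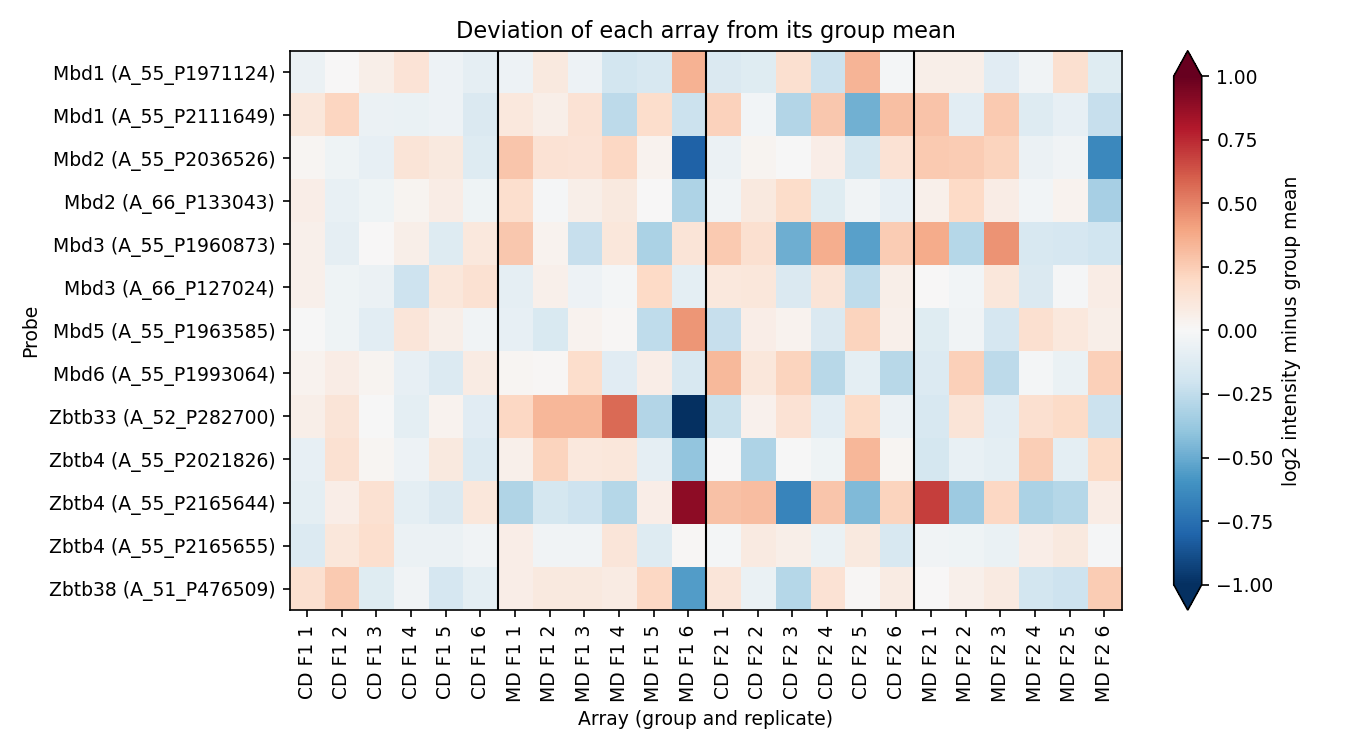
Log2 intensity of each array minus the mean of its group, for the 13 probes (rows) and 24 arrays (columns, in groups of 6), with the colour scale ending at -1 and 1. MD F1 replicate 6 departs from its group most on Zbtb33, Mbd2 A_55_P2036526, Zbtb38 and the dim Zbtb4 probe. To a lesser degree it is also higher on Mbd5 and Mbd1 A_55_P1971124 and lower on Zbtb4 A_55_P2021826 and Mbd2 A_66_P133043. The F2 arrays alternate between high and low on Mbd3 A_55_P1960873.

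Several members differed between the generations by more than between the diets. Generation, slide and scan day coincide in this design and cannot be told apart, so these levels are descriptions. Genetic background (hybrid F1, mixed F2) differed as well. Every F1 array carried both Xist and Ddx3y well above background, and no F2 array did. The hippocampus marker sums were 41500 to 49000 on the F1 arrays and 61000 to 82000 on the F2 arrays. The part of these features in the levels was not tested. With all arrays normalized together, F1 and F2 arrays did not overlap for 6 of the 13 probes (46.2%), against 25.6% of all probes. The mean of the dimmer Mbd3 probe was 9.81 in CD F1 and 11.38 in CD F2, and that of the brighter one 14.15 and 14.64. Mbd6 stood at 12.69 in CD F1 and 11.91 in CD F2, Mbd2 A_66_P133043 at 11.79 and 11.17, Zbtb33 at 9.53 and 10.18, and Zbtb4 A_55_P2021826 at 8.80 and 9.61. Zbtb38 stood at 9.93 and 9.17, with an overlap through MD F1 replicate 6 alone (8.95), since the other F1 arrays lay at 9.59 or above and the highest F2 array at 9.46. For Mbd5 (12.11 and 12.20) and Mbd1 A_55_P1971124 (11.12 and 11.00) the ranges of the generations overlapped. They also overlapped for the brightest Zbtb4 probe A_55_P2165655 (13.14 and 12.96) and the dim A_55_P2165644 (4.89 and 5.48). The Zbtb4 probes thus did not share a direction between the generations. Ranges overlapped as well for Mbd2 A_55_P2036526 (9.87 and 9.50) and Mbd1 A_55_P2111649 (7.68 and 7.91).

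The genes whose deviations from the group mean were most like those of a member were found over 24 arrays among 17938 probes well above background on all of them. The nearest to Zbtb38 were Eif4g3 (Pearson r = 0.931), Unc80 (0.929) and Irs2 (0.915). The values were 0.875, 0.884 and 0.85 over the 21 arrays left without MD F1 replicate 6, CD F2 replicate 6 and MD F2 replicate 3, which stand apart by intensity or detection. The nearest to Zbtb33 included Acvr2a (0.935) and Qk (0.93), with 0.807 and 0.801 over the 21 arrays. For Mbd6 they were Flna (0.907), Six5 (0.878) and Llgl2 (0.861), and for Mbd5 they were Uros (0.909), Gpbp1 (0.905) and Golph3l (0.902). Mbd2 was most like Cnep1r1 (0.877), Lamp2 (0.839) and Atp2b1 (0.837). Mbd3 was most like Radil (0.834), Wdr6 (0.826) and Zfp787 (0.823). Mbd1 was most like Hnrnph3 (0.846), Ss18 (0.843) and Tmem263 (0.842), and Zbtb4 like Smim13 (0.877), Styx (0.844) and Ube2v2 (0.828). For these 6 genes other than Zbtb38 and Zbtb33 the r over the 21 arrays was 0.778 to 0.877. These values describe the arrays, and the part of hybridization, normalization or RNA quality in them was not tested.

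Genes of the complexes through which the members act, with a few other genes that carry an MBD or related domain (such as Baz2a), were examined as a list of 40 genes with 57 probes. None of the 57 probes passed at an FDR under 0.1 in F1, in F2 or in the comparison of the generations (limma). At an unadjusted p under 0.05, 6 passed in F1 (4 higher, 2 lower; 10.5% against 14.5% of all probes), 3 in F2 (5.26% against 5.56%) and 3 in the comparison of the generations (5.26% against 8.21%). The smallest p in F1 were those of Sin3a, the scaffold of a deacetylase complex (log2 fold change 0.24 ± 0.0742 SE, FDR = 0.229), of Chd5, a neuronal remodeller of NuRD (0.20 ± 0.0658 SE, FDR = 0.251), and of Mta3, another NuRD subunit (-0.60 ± 0.223 SE, FDR = 0.278, probe A_55_P1971347). The other Mta3 probe stood at 0.10. In F2 they were those of the NuRD genes Gatad2a (0.55 ± 0.165 SE, FDR = 0.89, probe A_51_P129149) and Hdac1 (0.31 ± 0.124 SE, FDR = 0.89, probe A_55_P2077608) and of Asxl1 of PR-DUB (-0.16 ± 0.073 SE, FDR = 0.89). The other probes of Gatad2a stood at 0.00 and -0.08 in F2, and those of Hdac1 at 0.32 and -0.07. For the difference of the diet effects, F1 minus F2, they were those of the same Gatad2a probe (-0.68 ± 0.222 SE, FDR = 0.412), of Hcfc1 A_55_P1965629 (0.26 ± 0.0981 SE, FDR = 0.489) and of the same Mta3 probe (-0.65 ± 0.271 SE, FDR = 0.527). Other probes of these genes lay near 0 or on the other side, at -0.04 and -0.02 for Gatad2a, -0.66 for Hcfc1 and 0.22 for Mta3. By complex, 3 of 21 NuRD probes (14.3%, against 14.5% of all probes), 0 of 10 NCoR probes and 0 of 13 PR-DUB probes had an unadjusted p under 0.05 in F1. The same held for 1 of 3 probes of Mbd1 partners and 1 of 6 of partners of the zinc finger members. Of the other genes with an MBD or related domain it held for 1 of 4 probes.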

How the data were processed

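Hippocampal RNA was measured on 24 Agilent single-colour arrays, 6 per group, on 6 slides with 2 arrays of each diet. The generations shared no slide and were each scanned on a day of their own. The deposited files hold linear intensity values that Feature Extraction (version 10.7.3.1 per the file headers, another than the methods name) had background-subtracted and detrended. The authors' processed table holds quantile-normalized intensities and served as an alternative. 

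Log2 values of the 43020 non-control spots, less those flagged as irregular (1939 in F1, 2097 in F2), were averaged over spots of a probe and quantile-normalized within each generation, or over all 24 arrays for the comparison of the generations. limma 3.58.1 (R 4.3.3) was fitted with group means to all probes, with Benjamini-Hochberg adjustment over all of them. Identifiers gave 26049 probes 1 of 19747 symbols. Of the partner genes, 1 (Setdb2) had no probe matched here. All 13 probes were used, 12 of them well above background on all arrays. Median intensity was 148 to 318 per array and 27383 to 37013 spots were well above background; the number of arrays limits the precision. Nothing states that pools shared no litter, so p-values measure the spread between these pools.

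Genes named are all members, up to 3 partner genes with the smallest p per comparison, the 3 genes most like each member's brightest probe, and sex-linked genes; 1 gene that this rule names is not reported here. Members, lists and rules were chosen with earlier results of these data known. Marker lists of 9 tissues or cell types were summed. Alternatives covered scaling, background correction, dim probes, irregular spots, slide, replicate number, the sex measure, the F2 label code (lh or rh, meaning not stated), the processed table, variance priors, array weights, a joint fit, a stricter FDR and each array left out.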

Additional observations from a re-analysis of the deposited data

Results flagged for a closer look

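Dixon's criterion for 6 arrays was applied to 52 sets (13 probes in 4 groups), of which it marks about 2.6 by chance, and 4 sets held an array far from the others. MD F1 replicate 6 was apart on 3 of them. It stood at 8.91 on Mbd2 A_55_P2036526 (the other 5 arrays lay at 9.76 to 10.00), at 9.11 on Zbtb38 (the others at 9.74 to 9.88) and at 6.43 on the dim Zbtb4 probe A_55_P2165644 (the others at 5.23 to 5.60). The fourth was MD F2 replicate 6, at 8.58 on Mbd2 A_55_P2036526 (the others at 9.17 to 9.49). Zbtb33 in MD F1 was not marked, since replicates 5 and 6 were both low.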

How the results depend on the processing

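The count of member probes at an FDR under 0.1 stayed at 0 in F1, F2 and the comparison of the generations under every alternative run except F1 without scaling between arrays. There the median of all probes moved by -0.28, 7952 of 39429 probes were called, and the members called were 4: Zbtb38 (-0.72), Mbd3 A_55_P1960873 (-0.52) and Mbd1 A_55_P1971124 (-0.35) and A_55_P2111649 (-0.43). Of the partner probes 9 were called in that setting, and 1 with array weights when the generations were compared. The 11 probes called in F1 among all probes became between 0 and 573 under the other settings, with 152 without MD F1 replicate 6. In F2 the count of 0 became at most 17, in the fit of all 24 arrays, and the 5 probes called in the comparison of the generations became 0 to 546. Member probes at an unadjusted p under 0.05 in F1 were 1 to 5, with 5 of 13 without MD F1 replicate 6 (14.4% of all probes) and 5 of 13 without scaling (35.3% of all probes). The causes were not tested.

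Values that changed sign were as follows, most of them near 0; Zbtb4 A_55_P2165644 in F1 (0.39) and Mbd2 A_55_P2036526 in the comparison of the generations (-0.17) were not. In F1, Mbd5 was 0.02 with scaling to the 75th percentile. Without scaling Mbd6 was -0.22, Zbtb4 A_55_P2165644 -0.01, Zbtb4 A_55_P2165655 -0.16 and Mbd2 A_66_P133043 -0.18. With the sex measure Zbtb4 A_55_P2021826 was 0.03 and Mbd1 A_55_P2111649 0.06, and Zbtb4 A_55_P2021826 was 0.03 with array weights and 0.01 without the 3 arrays that stand apart. In F2, without scaling, Zbtb38 was -0.04 and Mbd6 -0.02. With array weights Zbtb38 was -0.05, Mbd5 0.02, Mbd1 A_55_P1971124 0.02, Mbd6 -0.03, Zbtb4 A_55_P2021826 0.02 and Mbd3 A_66_P127024 -0.03. In the comparison of the generations, without scaling, Mbd5 was -0.15, Zbtb4 A_55_P2165655 -0.20 and Mbd2 A_66_P133043 -0.11. With array weights Mbd5 was -0.11, Zbtb4 A_55_P2165655 -0.02 and Mbd3 A_66_P127024 0.04. Without the 3 arrays Mbd5 was -0.07, Zbtb4 A_55_P2021826 0.03 and Mbd2 A_55_P2036526 0.01.

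Leaving out 1 array at a time, values ranged in F1 from -0.10 to 0.04 for Mbd5, -0.03 to 0.04 for Mbd6 and -0.12 to 0.01 for Zbtb4 A_55_P2021826. In F2 they ranged from -0.09 to 0.02 for Mbd1 A_55_P1971124, -0.07 to 0.04 for Mbd2 A_66_P133043, -0.14 to 0.04 for Mbd3 A_55_P1960873, -0.02 to 0.06 for Mbd3 A_66_P127024, -0.05 to 0.07 for Mbd6, -0.02 to 0.08 for Zbtb38 and -0.10 to 0.03 for Zbtb4 A_55_P2021826. In the comparison of the generations they ranged from -0.08 to 0.02 for Mbd3 A_66_P127024, -0.02 to 0.11 for Mbd5, -0.10 to 0.05 for Zbtb4 A_55_P2021826 and -0.02 to 0.04 for Zbtb4 A_55_P2165655. Zbtb38 in F1 ranged from -0.46 to -0.31.

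Equal replicate numbers did not pair the arrays throughout: the correlation of their deviations was -0.0537 to 0.205 in F1 and -0.174 to 0.193 in F2. With the replicate block the F1 value of Zbtb38 was -0.42 (limma, FDR = 0.283), member probes called stayed at 0 in each comparison, and the calls among all probes were 0 in F1 and 27 in the comparison of the generations. No CD F1 array correlated best with the MD F1 array of its own number, and in F2 only replicates 1 and 2 did.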
